A study of Mus musculus with 47 samples.

Results

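Pick1 and 7 genes for proteins that work beside PICK1 in the trafficking of AMPA-type glutamate receptors were followed across prefrontal cortex (PFC) and hippocampus of mice given saline, a PICK1 inhibitor or a PSD-95 inhibitor. The genes were chosen by name: Pick1, Grip1, Grip2, Prkca, Nsf, Ica1, Ica1l and Arfip2, which are 8 of the 45706 genes counted, together with the 12 transcripts that the deposited tables place under Pick1, of 109617 in all. Each of the 8 passed the filter on low counts. The rule used no value of these data, but the set was proposed with earlier results of them known.

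The samples were 47 libraries of polyadenylated RNA in 6 groups. In PFC there were 8 libraries each for the groups labelled Saline, PICK1i and PSD-95i, and in hippocampus 7, 8 and 8 in the same order. The protocol in the labels describes diet-induced obese mice of 53 g on average, injected daily for 5 days with isotonic saline, with mPD5 at 56 mg/kg or with UCCB01-147 at 25 mg/kg, and killed 2 hours after the last injection. From general knowledge, mPD5 is the PICK1 inhibitor and UCCB01-147 the PSD-95 inhibitor. All groups, controls included, are described as obese, so no lean animals stand in the comparison. That protocol names the whole hypothalamus as the dissected tissue and 6 mice given saline. Neither fits the tissues and group sizes of these libraries, so its doses and times may not hold for them. No source used here gives the strain, sex or age. The labels do not tie libraries to single mice, or PFC libraries to hippocampal ones, so the p-values cover only the variation among libraries. Both inhibitors act on protein binding, and transcript counts do not measure that action.

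PICK1 is a scaffold that carries a PDZ domain and a membrane-bending BAR domain. It binds the tail of the GluA2 subunit of AMPA receptors and takes part in removing receptors from the synaptic surface and holding them inside the cell. GRIP1 and GRIP2 are scaffolds with several PDZ domains that bind the same tail and anchor or transport receptors. Protein kinase C alpha, encoded by Prkca, is a PICK1 ligand that phosphorylates the tail and shifts it from GRIP to PICK1. NSF is an ATPase that takes SNARE complexes apart and also separates PICK1 from GluA2. ICA69 (Ica1), its relative encoded by Ica1l, and arfaptin 2 (Arfip2) carry BAR domains related to that of PICK1, and the ICA69 family pairs with it.

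The largest single part of the Pick1 count was assigned to a transcript with a retained intron. Pick1 lies on the plus strand of chromosome 15, from 79229173 to 79249484 in the GRCm38 build. Pick1-210, annotated as retained intron, keeps an 836-bp intron at chr15:79247316-79248151 that Pick1-203, a protein-coding transcript, splices out. The sequences at this intron show how spliced and retained forms differ in the reads. They were read from the GENCODE M21 transcript sequences, placed on GRCm38 by their exons, 5′ to 3′ on the plus strand. Each has 30 bases on each side of a boundary, exon bases in capitals and intron bases in lower case. The spliced transcript joins both exons directly, and in Pick1-210 each exon runs into or out of the intron. The spliced junction is also in Pick1-201, Pick1-205 and Gm49486-201. The left boundary is also in Pick1-202, Pick1-204, Pick1-207, Pick1-208 and Pick1-211. Among the 12 transcripts only Pick1-210 has the right boundary.
Pick1-203, spliced junction: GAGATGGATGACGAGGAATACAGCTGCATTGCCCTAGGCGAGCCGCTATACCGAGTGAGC
Pick1-210, left boundary: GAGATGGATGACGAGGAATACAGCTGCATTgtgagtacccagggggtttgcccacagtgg
Pick1-210, right boundary: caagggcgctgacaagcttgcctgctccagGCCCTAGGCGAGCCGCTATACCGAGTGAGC

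Over the 47 libraries, Pick1-210 held on average 38.8% of the Pick1 count. The coding transcripts Pick1-205, Pick1-203 and Pick1-201 held 20.6%, 16.8% and 5.52%. The other 8 transcripts were each under 5% on average. The 7 transcripts annotated as retained intron together took 52.5 ± 3.49% (SD, n = 47) and the 4 annotated as coding 45.4 ± 3.68%. With each count divided by transcript length the shares were 54.7 ± 3.6% and 43.7 ± 3.75%, in the same order. That division takes reads to be spread evenly along a transcript, which was not tested. These shares are estimates that divide reads among overlapping models, and the average count behind them was 154 for Pick1-210 and 66.7 for Pick1-203. Pick1-203 and Pick1-205 both have 1248 coding bases and differ at the 5′ exons and at the end of the last exon, so few reads tell them apart. One of the 4 coding transcripts, Gm49486-201 with 2.57%, is placed by GENCODE in a separate gene, Gm49486, that shares 1222 exon bases with Pick1 on the same strand. The deposited tables count it under Pick1 and have no line for Gm49486.

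**Figure D1:**
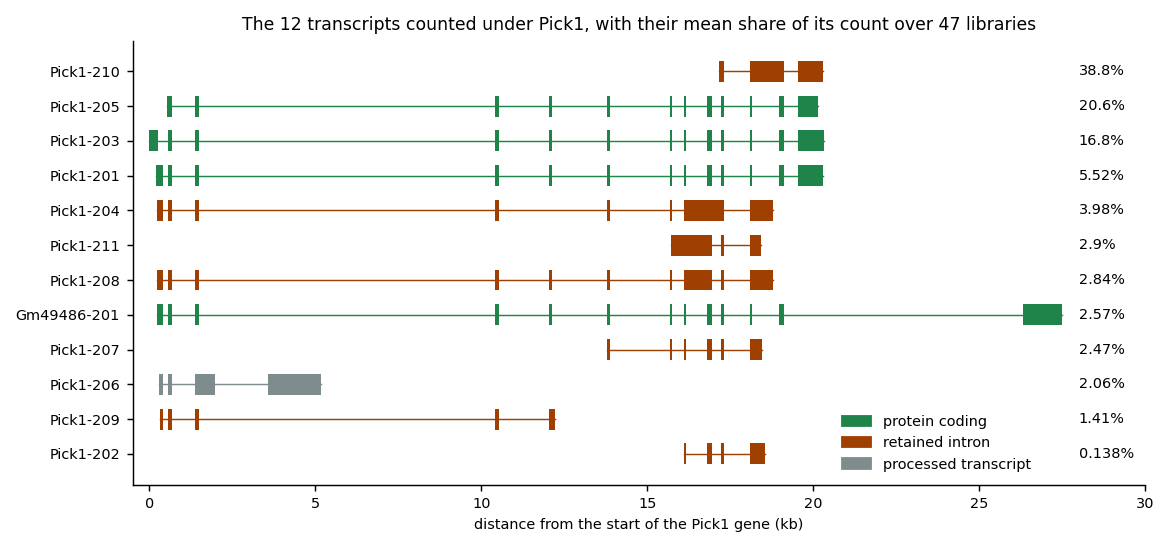
Exons (boxes) and introns (lines) of the 12 transcripts counted under Pick1, by distance from the start of the gene in kb, with the mean share of the Pick1 count over 47 libraries at the right. Pick1-210, with 38.8%, spans only the last part of the gene, and the coding transcripts Pick1-205 and Pick1-203 span nearly all of it with 20.6% and 16.8%.

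Each library held 5378175 to 13139410 estimated counts over all genes, and Pick1 itself 238 to 674 counts. Levels below are CPM, counts scaled to library size with TMM factors over all 47 libraries. The tissue labels were checked by markers. The mean log2 CPM of 9 hippocampal subfield genes lay between 3.04 and 3.59 in PFC libraries and between 3.81 and 7.28 in hippocampal ones, and the 3.81 belonged to the library labelled hippocampus PICK1i replicate 7. Summed as CPM, these genes overlapped between the tissues (229 to 332 CPM in PFC and 265 to 1706 CPM in hippocampus). Over 7 genes of cortical layers, PFC libraries lay between 643 and 1082 CPM and hippocampal ones between 185 and 303 CPM. Within their groups 5 libraries stood apart by markers of another region, either striatal, thalamic or olfactory. Striatal markers, 10 of 10 above every other library of the group, summed to 801 CPM in the library labelled PFC Saline replicate 1 (234 to 328 in the rest), 3073 in hippocampus Saline replicate 1 (173 to 228) and 2071 in hippocampus PICK1i replicate 2 (153 to 179). Thalamic markers, 9 of 9, summed to 2150.04 CPM in the library labelled hippocampus PICK1i replicate 7 (117 to 277 in the rest). Olfactory markers, 7 of 8, summed to 398 CPM in the library labelled PFC PICK1i replicate 6 (18.5 to 40.04 in the rest). No marker of these lists was at 0 in those libraries. The library with thalamic markers had the subfield value of 3.81 given above, against a group median of 6.86, which goes against its label. Hippocampus PICK1i replicate 2, with striatal markers, had the next lowest subfield value of that group, 4.95. Its level of Prox1, a subfield gene, was the lowest of the group at 18.4 CPM, against a median of 127.6 CPM. Values without these 5 libraries stand beside several results. Choroid plexus markers were not used to set libraries apart. Their mean log2 CPM was 7.13 in hippocampus Saline replicate 5, against a group median of 3.03. It was 5.93 in hippocampus PICK1i replicate 8 (median 2.96). In hippocampus PSD-95i replicates 3 and 7 it was 6.27 and 6.17 (median 3.59). The values without the 5 libraries still include these.

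Levels between genes were compared per transcript length, scaled to the same total in each library. On this scale Nsf was highest with a median of 763 over 47 libraries, followed by Arfip2 at 100.02, Prkca at 87.8, Pick1 at 54.01, Ica1l at 36.7, Ica1 at 29.8, Grip2 at 14.2 and Grip1 at 6.77. Every Nsf library lay above every library of the other genes. All other neighbours in this order overlapped in their ranges over libraries. The median per-length level of Pick1 lay between that of the kinase gene and those of the ICA69 family, and the GRIP genes had the lowest medians.

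The level of Pick1 did not differ detectably between either inhibitor and saline. In PFC, Pick1 ranged from 41.8 to 53.2 CPM after saline with a median of 49.8 (n = 8), from 42.2 to 60.9 CPM after PICK1i with a median of 51.3 (n = 8), and from 45.9 to 56.2 CPM after PSD-95i with a median of 50.6 (n = 8). In hippocampus it ranged from 37.4 to 48.2 CPM after saline with a median of 44.2 (n = 7), from 39.3 to 56.8 CPM after PICK1i with a median of 45.2 (n = 8), and from 38.9 to 58.1 CPM after PSD-95i with a median of 41.5 (n = 8). The groups of each tissue overlapped over most of their range. The log2 fold change of PICK1i against saline was 0.07 in PFC with a 95% interval from -0.07 to 0.21, and 0.06 in hippocampus with an interval from -0.11 to 0.23. Without the 5 libraries the hippocampal value was -0.00601 (SE 0.0794), so its sign rests on them. For PSD-95i the values were 0.04 (-0.10 to 0.17) and -0.03 (-0.20 to 0.14). In bulk tissue, fewer cells of a type and less RNA per cell cannot be told apart.

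None of the 8 genes passed an adjusted p of 0.05 in any of the 6 comparisons between treatments within a tissue (edgeR's quasi-likelihood test, Benjamini-Hochberg over all genes). DESeq2 and limma voom also called 0 of 8 in each. In PFC the share of all genes called was 0.201% when PICK1i was set against saline (30 of 14911 genes), 0% when PSD-95i was, and 0.335% between the inhibitors (50 genes). In hippocampus it was 0% for PICK1i against saline, 0% for PSD-95i against saline and 0% for the inhibitors against each other, of 15051 genes. In the 4 comparisons with no call, the numbers at an unadjusted p under 0.05 were 946 for PSD-95i in PFC, and for hippocampus 580 with PICK1i, 231 with PSD-95i and 734 between the inhibitors. DESeq2 called 1 gene in the first of these and 0 in the others, and voom 0 in all 4. With so few calls among all genes, 0 of 8 is near the background.

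**Figure D2:**
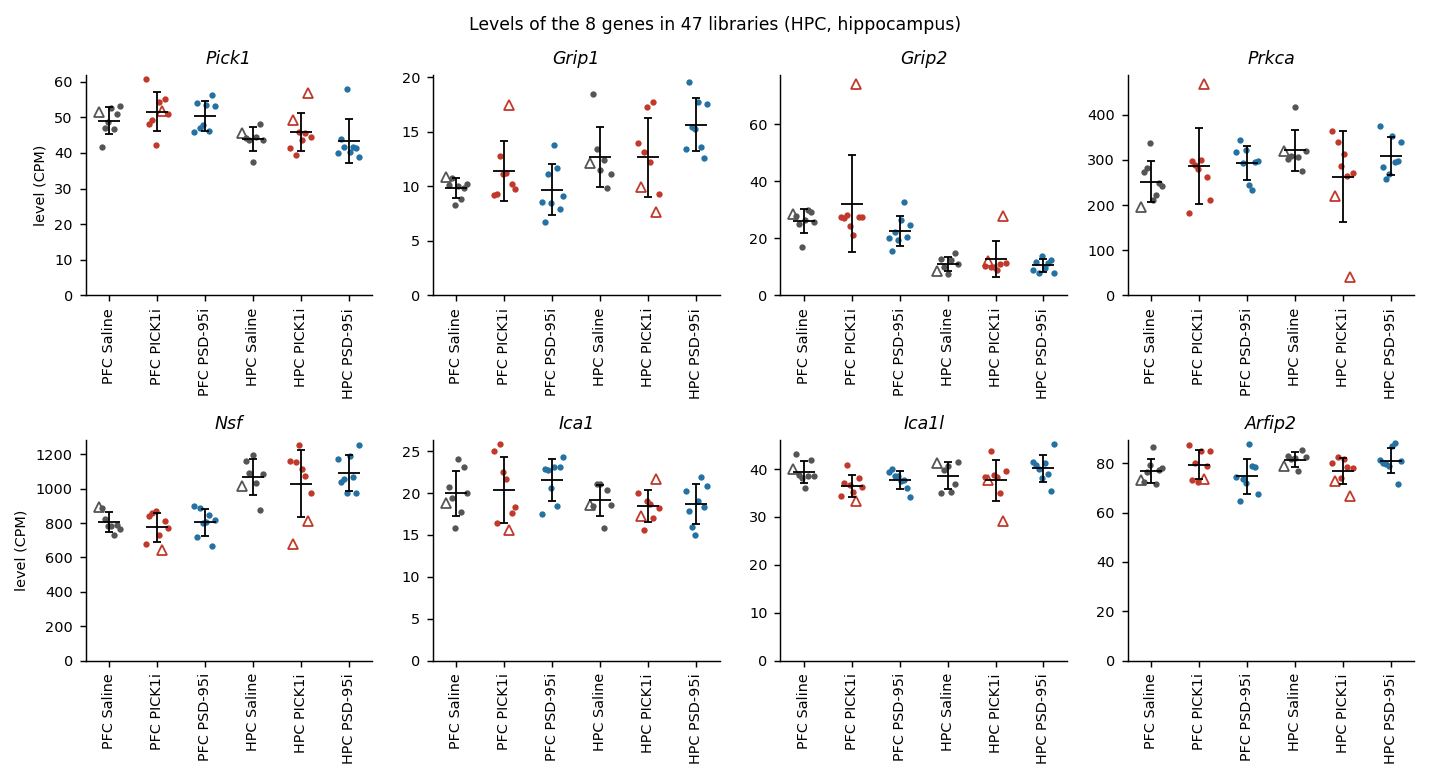
Levels in CPM (linear axes from 0) of the 8 genes in each library, by tissue (PFC; HPC, hippocampus) and treatment; bars give the mean and SD of a group, and open triangles the 5 libraries high in markers of another region. Grip2 is lower and Nsf higher in hippocampus, and the treatments overlap within each tissue for all 8 genes.

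The gene with the smallest unadjusted p after PICK1i was Ica1l, a relative of ICA69. Its PFC levels ran from 36 to 43.2 CPM after saline, with a median of 38.7, and from 33.3 to 40.8 CPM after PICK1i, with a median of 36.4. The ranges overlapped, and the log2 fold change was -0.12 (SE 0.05, n = 8 each), with an edgeR adjusted p of 0.818. Without the libraries high in markers of another region it was -0.09. For PSD-95i against saline in PFC, Prkca had the smallest p among the 8 genes, with a log2 fold change of 0.22 (95% interval -0.07 to 0.51). In hippocampus the widest differences from saline were those of Grip1 after PSD-95i, 0.29 (-0.04 to 0.62), and of Prkca after PICK1i, -0.29 (-0.81 to 0.23).

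Some drug differences of Prkca and Grip2 followed single libraries with markers of another region. Grip2 in PFC after PICK1i ran from 21.2 to 74 CPM with a median of 27.5, and the 74 CPM belonged to the library labelled replicate 6, in which olfactory markers were high. The saline range was 16.8 to 29.7 CPM. The log2 fold change against saline was 0.31 (SE 0.21) with all libraries and 0.02 (SE 0.12) without those high in markers of another region. For PSD-95i against PICK1i in PFC the Grip2 value was -0.52 (edgeR, adjusted p = 0.425), and without those libraries it was -0.21. Prkca in PFC PICK1i libraries ran from 182 to 468 CPM, again with replicate 6 highest, and its value against saline was 0.19 with all libraries and under 0.01 without them. The part of these markers in the differences was not tested beyond leaving the libraries out.

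In hippocampus, Prkca after PICK1i ran from 40 to 365 CPM with a median of 279, against 276 to 417 CPM after saline. The 40 CPM belonged to the library labelled replicate 7, in which thalamic markers were high, and the next lowest PICK1i library had 219.7 CPM and high striatal markers. Without the libraries high in markers of another region, Prkca in PICK1i libraries ran from 265 to 365 CPM (n = 6), and the log2 fold change against saline was -0.07 instead of -0.29. Grip2 in hippocampus after PICK1i ran from 8.94 to 27.9 CPM, with replicate 7 highest, and its value against saline was 0.19 with all libraries and -0.15 without them. The sign of this Grip2 difference, which was not called with or without them, therefore rests on those libraries.

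**Figure D3:**
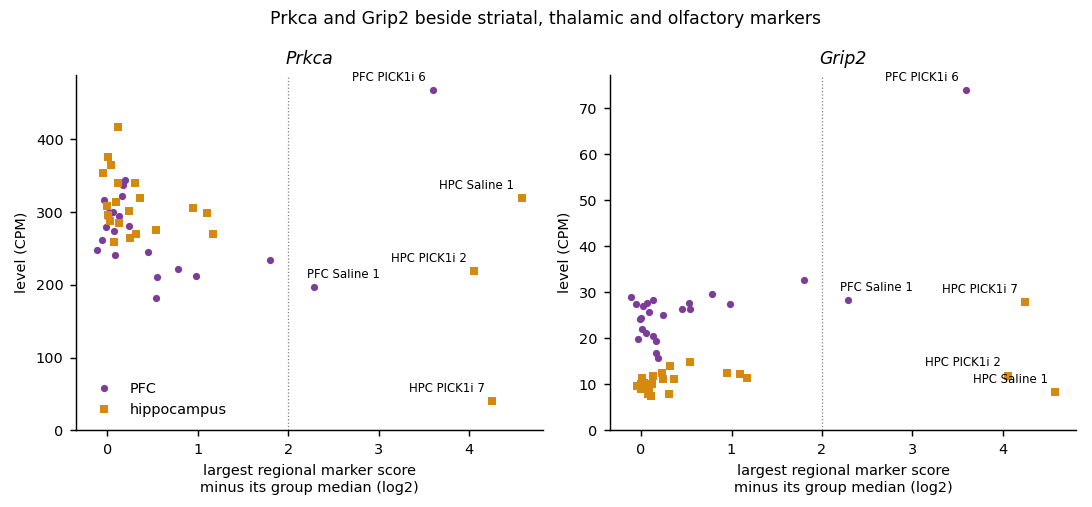
Levels of Prkca and Grip2 in CPM in 47 libraries, against the largest excess of a striatal, thalamic or olfactory marker score over its group median (log2); circles are PFC, squares hippocampus (HPC), and the dotted line at 2 marks the 5 libraries set apart. The library labelled PFC PICK1i replicate 6 is highest in PFC for both genes, and hippocampus PICK1i replicate 7 is lowest for Prkca and highest in hippocampus for Grip2.

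The drug effects did not differ detectably between the tissues for any of the 8 genes. Of 15658 genes, 0.00639% (1 gene) passed for the difference in the PICK1i effect and 0% for the PSD-95i effect, with 605 and 428 genes at an unadjusted p under 0.05. DESeq2 called 2 and 0 of all genes, and voom 9 and 0. All 3 tools called 0 of the 8 genes. The largest difference was that of Prkca for PICK1i, -0.48 with an SE of 0.29 (edgeR, adjusted p = 1), and without the libraries high in markers of another region it was -0.07. For Pick1 the PICK1i effect in hippocampus minus that in PFC was -0.02 (95% interval -0.23 to 0.19), and without those libraries -0.09 (SE 0.11).

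**Figure D4:**
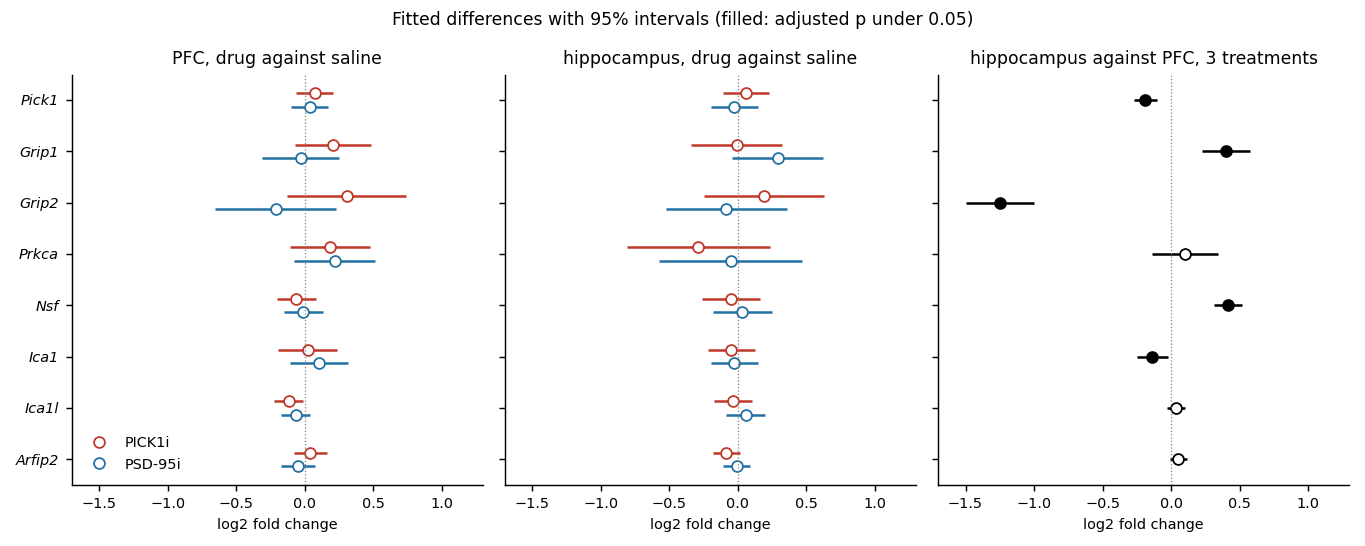
Fitted log2 fold changes (points) with 95% intervals (lines) of the 8 genes for each inhibitor against saline in PFC and in hippocampus, and for hippocampus against PFC over the 3 treatments; filled points passed an adjusted p of 0.05. All 32 points for the inhibitors are open, and Pick1, Grip1, Grip2, Nsf and Ica1 are filled for the tissues.

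Between the tissues, averaged over the 3 treatments, Grip2 was 0.42 times as high in hippocampus as in PFC, Pick1 0.88 times and Ica1 0.91 times, while Nsf was 1.33 times and Grip1 1.32 times as high. These 5 of 8 genes passed the test, 3 lower and 2 higher in hippocampus. Of all 15658 genes, 61.6% passed, 32% higher and 29.6% lower, so 5 of 8 is near the background. The median log2 difference of the 8 genes was 0.04 and that of all genes tested was 0.01. Other cell types differed between the dissected pieces too. All 10 oligodendrocyte markers were higher in hippocampus, where they summed to 2369 to 13992 CPM per library against 1633 to 4002 CPM in PFC. All 5 tested of 7 choroid plexus markers were higher there. The 7 together summed to 39.1 to 5605 CPM per library there, against 1.46 to 13.4 CPM in PFC. Of 6 inhibitory neuron markers 4 were lower (594 to 979 CPM against 688 to 1510.3 CPM). No marker of these 3 lists was at 0 in every library of a tissue, and their part in the differences below was not tested.

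Grip2, the scaffold of the GRIP pair that fell, had a range of 15.7 to 74 CPM in PFC with a median of 26.4 (n = 24), and of 7.55 to 27.9 CPM in hippocampus with a median of 11.1 (n = 23). In 22 of 23 hippocampal libraries Grip2 lay below every PFC library, and the exception was the one labelled PICK1i replicate 7. The log2 difference was -1.25 with an SE of 0.12 (edgeR, adjusted p = 5.96e-12), and without the 5 libraries high in other markers it was -1.23. Within treatments it was -1.24 for saline, -1.37 for PICK1i and -1.13 for PSD-95i. Grip1, its paralog, differed the other way: its levels ran from 6.69 to 17.5 CPM in PFC with a median of 10.05 and from 7.63 to 19.6 CPM in hippocampus with a median of 13.4. The log2 difference of Grip1 was 0.40 with an SE of 0.09 (edgeR, adjusted p = 9.53e-05), and the ranges overlapped, with 5 of 23 hippocampal libraries above every PFC library. Both GRIP genes passed the test in opposite directions.

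Nsf ran from 646 to 897 CPM in PFC with a median of 805 and from 680 to 1254 CPM in hippocampus with a median of 1076. In 20 of 23 hippocampal libraries it lay above every PFC library. The lowest hippocampal value was that of the library labelled PICK1i replicate 2, in which striatal markers were high. The log2 difference was 0.42 with an SE of 0.05 (edgeR, adjusted p = 8.28e-10).

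Pick1 ran from 41.8 to 60.9 CPM in PFC with a median of 51.004 and from 37.4 to 58.1 CPM in hippocampus with a median of 43.8. In 9 of 23 hippocampal libraries it lay below every PFC library, and in 21 of 23 below the PFC median. The log2 difference was -0.19 with an SE of 0.04 (edgeR, adjusted p = 0.000151). Ica1, the gene of the BAR-domain partner ICA69, ran from 15.6 to 25.8 CPM in PFC and from 15.03 to 21.9 CPM in hippocampus, with medians of 20.6 and 18.5. Its log2 difference of -0.14 (SE 0.06) had an edgeR adjusted p of 0.0287, and it was the only one of the 5 whose call was lost in an alternative: the adjusted p was 0.0515 without a filter on low counts and 0.0665 with a replicate block. Ica1l and Arfip2 did not pass, with log2 differences of 0.04 (95% interval -0.03 to 0.10) and 0.05 (-0.01 to 0.11). Prkca, 0.10 (-0.14 to 0.34) with an adjusted p of 0.466, did not pass with all libraries and did without the 5 high in other markers, at 0.20 with an edgeR adjusted p of 0.00691.

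Within single treatments fewer of the 8 genes passed, as did fewer of all genes. In saline libraries 2 genes passed, Grip2 and Nsf, beside 38.3% of all genes. In PICK1i libraries the same 2 passed, beside 36.8%. In PSD-95i libraries 4 passed, Pick1, Grip1, Grip2 and Nsf, beside 45%. The saline count rose to 4 without the 5 libraries, Prkca and Grip1 being added, and also to 4 without hippocampus PICK1i replicate 7 alone. The PICK1i count rose to 4 without the 5 libraries, adding Grip1 and Pick1. Grip1 differed by 0.37 in saline (edgeR, adjusted p = 0.0541), 0.15 in PICK1i (0.468) and 0.68 in PSD-95i (0.000166). Without the 5 libraries these values were 0.39 (0.0273), 0.39 (0.0265) and 0.66 (2.96e-05). The tests of whether a drug effect differs between tissues, given above, did not pass for Grip1.

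Genes that work with these 8 were taken from lists of interaction partners, of the protein kinase C family and of trafficking routes. Of 92 genes tested on 9 lists, Prkca itself among them, 70 differed between the tissues (76.1%). Of all genes 61.6% did, 32% being higher and 29.6% lower in hippocampus. The counts below are to be read against these shares. Among 9 tested ligands and cargo of PICK1, 4 were higher and 4 lower in hippocampus. Asic1, an acid-sensing channel, had a log2 difference of -1.15, Grik2, a kainate receptor subunit, 0.84 and Gria3, an AMPA receptor subunit, -0.44. Of 8 regulators of PICK1, 5 were higher and 3 lower, with Hpca, the calcium sensor hippocalcin, at 1.15 and Pacsin1, an endocytic BAR protein, at -0.33. Of 9 subunits of the Arp2/3 complex, an actin nucleator that PICK1 binds, 7 were higher and 0 lower (all genes, 32% and 29.6%), with a median log2 difference of 0.32 against 0.01 for all genes. Arpc5 (1.18), Actr3 (0.50) and Arpc1a (0.38) had the smallest p.

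Of 10 SNAP and SNARE partners of NSF, 1 was higher and 8 lower (all genes, 32% and 29.6%), with a median of -0.19 against 0.01 for all genes, while Nsf itself was higher. The SNARE genes Snap25 (-0.88) and Stx1a (-1.84) had the smallest p. Of 10 partners of the GRIP proteins, 4 were higher and 4 lower, among them the liprin genes Ppfia4 (1.14), Ppfia2 (0.78) and Ppfia3 (-0.49). Of 10 arfaptin and Golgi carrier genes, 6 were higher and 2 lower. Arfip1, the paralog of Arfip2, was higher by 0.30 (edgeR, adjusted p = 5.31e-06), and Arl1, the Golgi GTPase that recruits arfaptins, was lower by 0.28 (log2 difference -0.28). Of 8 protein kinase C genes, 4 were higher and 3 lower, with a median of 0.48. Prkce had a log2 difference of 0.63 and Prkcz of -0.40, whereas Prkca was the 1 that did not pass. Of 14 clathrin genes 4 were higher and 4 lower, and of 14 genes of recycling endosomes 4 and 3.

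In the 6 drug comparisons and both tests of drug effects between tissues, 1 call fell on these lists, which is 1.09% of the 92 genes in that comparison beside 0.335% of all genes. Grasp, which encodes the receptor scaffold tamalin, was lower after PSD-95i than after PICK1i in PFC by 0.33 on the log2 scale (log2 difference -0.33, edgeR, adjusted p = 0.0462).

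At the level of Pick1 transcripts, 10 of the 12 had counts enough to test. All 10 were lower in hippocampus in the fitted values, and 3 passed the test over all transcripts, beside 48.7% of the 39163 transcripts tested. Pick1-205 had a log2 difference of -0.21 (SE 0.06, edgeR, adjusted p = 0.00447), Pick1-208 of -0.42 (adjusted p = 0.00778) and Gm49486-201 of -0.46 (adjusted p = 0.0241). Pick1-210, the retained intron transcript shown above, had -0.15 with an adjusted p of 0.0514. Without the 5 libraries, 5 of the 10 passed, and the count ranged from 2 to 5 as single libraries were left out. No Pick1 transcript passed for either inhibitor against saline. The shares of all transcripts called in those comparisons were 0.083% for PICK1i in PFC, 0% for PSD-95i in PFC, 0% for PICK1i in hippocampus and 0% for PSD-95i in hippocampus.

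After saline, the shares of the Pick1 count differed between the tissues by less than their spread. Pick1-210 held 37.7 ± 2.61% in PFC (SD, n = 8) and 38 ± 2.75% in hippocampus (n = 7), a difference of 0.35 percentage points (SE 1.39). For Pick1-203 the shares were 17.7 ± 1.04% and 17.6 ± 2.4%. Of 28 tests of a share, over 4 transcripts and 7 comparisons, 1 passed. In PFC the share of Pick1-203 ran from 15.8 to 18.7% after saline with a median of 17.8%, and from 12.9 to 16.1% after PICK1i with a median of 14.9%. The ranges met only at their edges. The mean share fell by 2.84 percentage points (SE 0.54), from 17.7 to 14.8 ± 1.12%, with an exact two-sided permutation p of 0.000622, or 0.0174 after adjustment over the 28 tests. This adjustment does not reach beyond Pick1. After PSD-95i the share was 16.4 ± 2.16%, 1.28 points below saline (SE 0.85, exact permutation p = 0.154).

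This share difference stands on small counts. The mean count of Pick1-203 in PFC was 75.2 after saline and 57.4 after PICK1i, and as a level it did not pass the test over all transcripts (log2 fold change -0.18, SE 0.09, edgeR, unadjusted p = 0.0624, adjusted p = 1). In hippocampus the share was 17.6% after saline and 17.6% after PICK1i. The PICK1i effect on the level of Pick1-203 did not differ detectably between the tissues (0.24, SE 0.13, adjusted p = 1). With counts divided by transcript length the share difference had an adjusted exact permutation p of 0.0218, and leaving out single libraries it ranged from -3.10 to -2.57 points with every call kept. Without the libraries high in markers of another region it was -2.71 points with an adjusted exact permutation p of 0.0653, which did not pass. In the same PFC groups the summed share of the 7 retained intron transcripts was 50.9 ± 2.91% after saline and 54.6 ± 2.92% after PICK1i, and that of the 4 coding ones 47.2 ± 2.76% and 43.2 ± 3.2% (n = 8 each), values for which no test was run.

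**Figure D5:**
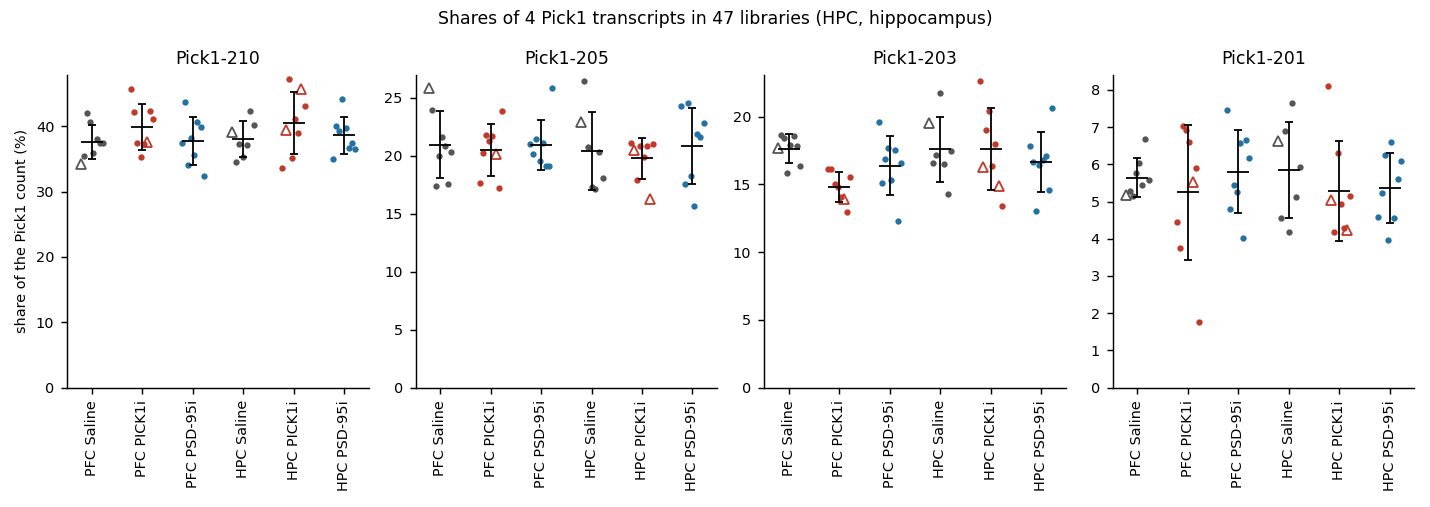
Share of the Pick1 count, in percent, assigned to each of 4 transcripts in every library, by tissue (PFC; HPC, hippocampus) and treatment; bars give the mean and SD of a group, and open triangles the 5 libraries high in markers of another region. For Pick1-203 the PFC PICK1i libraries lie between 12.9 and 16.1% and the PFC saline libraries between 15.8 and 18.7%.

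Across all 47 libraries, the deviations of each gene's log2 CPM from its group mean were set against those of all genes with a mean of at least 10 CPM. These Pearson correlations are descriptions over libraries that also share depth and dissection, and carry no test. The 5 genes nearest to Pick1 were Gpx4, a lipid peroxidase of the glutathione system (r = 0.754), Nrbp2 (0.749), the long non-coding RNA gene Rian (0.742), Cox4i1, a subunit of cytochrome c oxidase (0.737), and the ribosomal gene Rpl26 (0.733). Without the 5 libraries set apart, these r lay between 0.708 and 0.767 (n = 42). The nearest gene was Nos1, neuronal nitric oxide synthase, for Grip1 (0.820), Atp6v1a, a subunit of the vacuolar ATPase, for Nsf (0.911), Dedd for Ica1 (0.733), Cap2 for Ica1l (0.739, and 0.562 without the 5 libraries) and Dmwd for Arfip2 (0.680). For Prkca it was Sipa1l1 (0.939, and 0.749 without the 5 libraries) and for Grip2 Sema6a (0.788, and 0.544 without them).

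Among the members themselves, Pick1 varied against Nsf, with r = -0.641 over 47 libraries and -0.682 over the 42. It varied against Ica1l and Prkca with r = -0.534 and -0.527. Pick1 and Ica1, whose proteins pair, had r = 0.06, and Grip1 and Grip2 had r = 0.12. Prkca and Grip2 varied against each other with r = -0.485, and -0.649 without the 5 libraries.

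Positions of the other genes in GRCm38 are chromosome 10, 119453830 to 120087261, for Grip1 and chromosome 6, 91761509 to 91827250, for Grip2. Prkca and Nsf lie on chromosome 11, at 107933387 to 108343928 and 103821782 to 103954056. Ica1 lies on chromosome 6 at 8630527 to 8778488, Ica1l on chromosome 1 at 59982490 to 60043184 and Arfip2 on chromosome 7 at 105634203 to 105640416. On the opposite strand, exons of Prkca share 30 bases with Apoh, those of Ica1l 473 bases with Fam117b and those of Arfip2 277 bases with Timm10b. The library kit marks strand, but no source used here says whether counting used it, so reads in these stretches may belong to either gene.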

How the data were processed

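RNA was made into TruSeq Stranded mRNA libraries and sequenced as 52-bp paired-end reads, per the labels' protocols. The submitters' processing notes name bcl2fastq 2.20.0, STAR, Salmon and build GRCm38. The authors deposited estimated counts per gene and per transcript, not scaled between libraries; these were rounded for testing. Groups follow the labels.

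EdgeR 4.0.16 in R 4.3.3 was used (TMM, filterByExpr with minimum count 10 and minimum total 15, robust quasi-likelihood test, two-sided, adjusted p under 0.05), with 1 fit per tissue for drugs and 1 fit of all 6 groups for tissues. Alternatives used DESeq2 1.42.0, limma 3.58.1 (voom with sample weights), RLE scaling, other filters, an adjusted p under 0.1, only the groups compared, summed transcript counts, a replicate block and leaving out each library. Leaving out the 5 libraries whose striatal, thalamic or olfactory score exceeded the group median by over 2 (log2) was added after seeing the data. Log2 CPM used a prior count of 2. Transcript shares were tested by exact permutation. The edgeR fits of gene counts were checked on simulated data, in 1 comparison each. No such check was made of DESeq2, voom or the transcript fits. Figures used Python 3.11.15 with matplotlib 3.10.9. Transcript models came from GENCODE M21, which held 45143 of 45706 gene IDs.

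The genes were named by a rule that used no value of these data, and the genes, lists and tests were chosen with earlier results of these data known. Named were all 8 genes and the Pick1 transcripts in the comparisons described, up to 3 called genes of smallest p per list with related paralogs (some are not reported here), and the nearest genes by correlation (5 for Pick1, 1 for each other gene). Transcripts under 5% of the Pick1 count were named only where called or where they hold a boundary sequence shown. No 2 libraries of a group were alike within counting noise (smallest chi-square per gene between 3.04 and 4.15).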

Additional observations from a re-analysis of the deposited data

Results flagged for a closer look

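Of 48 sets of values, 8 genes in 6 groups, 9 held a library at the edge whose gap to the next exceeded Dixon's 95% critical value, and chance alone gives about 1 in 20 sets. Of these, 5 came from libraries with high markers of another region. In the library labelled PFC PICK1i replicate 6, Grip2 was at 74 CPM, Prkca at 468 CPM and Grip1 at 17.5 CPM, each the highest of its group, against next values of 28.3, 299.7 and 12.8 CPM. In the library labelled hippocampus PICK1i replicate 7, Prkca was at 40 CPM, the lowest of its group against a next value of 219.7 CPM, and Grip2 at 27.9 CPM, the highest against 11.9 CPM.

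The other 4 libraries did not stand apart by those markers. Pick1 was at 58.1 CPM in hippocampus PSD-95i replicate 4, with a next value of 44.05 CPM. Grip1 was at 18.5 CPM in hippocampus Saline replicate 2, with a next value of 13.4 CPM. Prkca was at 417 CPM in hippocampus Saline replicate 4, with a next value of 319.8 CPM. Grip2 was at 16.8 CPM in PFC Saline replicate 4, the lowest of its group, with a next value of 25.03 CPM.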

How the results depend on the processing

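For the 6 drug comparisons within a tissue and both differences of a drug effect between tissues, the count of the 8 genes called was 0 under every alternative run. For hippocampus against PFC over the 3 treatments it lay between 4 and 7, and at 5 whichever single library was left out. In saline libraries the count of 2 became 5 with voom, 5 with only the 2 groups, 4 at an adjusted p under 0.1 and 4 without the 5 libraries high in markers of another region, and 2 to 4 with single libraries left out. In PICK1i libraries the count of 2 became 4 without the 5 libraries, 3 with DESeq2, voom, RLE scaling or an adjusted p under 0.1, and 2 to 3 with single libraries left out; in PSD-95i libraries it was 4 to 6 over the alternatives and 4 to 5 with single libraries left out. Of 10 Pick1 transcripts, the 3 called between tissues became 5 with voom, 5 without the 5 libraries and 5 at an adjusted p under 0.1, and 2 to 5 with single libraries left out. Leaving out PFC PICK1i replicate 2, PFC Saline replicate 2, PFC PSD-95i replicate 6 or hippocampus Saline replicate 5 gave 5. The count of 1 called share became 0 without the 5 libraries, and 1 to 2 with single libraries left out, being 2 without hippocampus PICK1i replicate 8. The cause of these changes was not tested. No called value changed sign, and 208 values not called did, of 7372 values recomputed for single genes, transcripts and shares.

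The labels do not say whether replicate numbers pair the libraries. Of 7 or 8 same-numbered pairs per comparison, 1 to 4 correlated above 0.1. Such correlations cannot decide it, since libraries of 1 mouse need not deviate alike. With a replicate block the tissue counts were 4 over the 3 treatments, 3 in saline, 2 in PICK1i and 4 in PSD-95i libraries, 3 for the Pick1 transcripts, and 0 for all drug comparisons. Depth limits the Grip1 values, from 50 to 183 counts per library, and those of Pick1 transcripts under 5%.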

Other observations

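Ica1l and its paralog Ica1 did not vary together across libraries (r = -0.00461 over 47 libraries, and 0.07 over the 42 without those high in markers of another region), a description with no test.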
